A study of Mus musculus with 56 samples.

Results

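Collagens, the matrix glycoproteins that accompany them and the enzymes that fold, trim and cross-link collagen were compared between 2 mouse cell lines, OV from the surface epithelium of the ovary and the fibroblast line 3T3. The 40 genes were chosen by name, with earlier results of these data known. All probes carrying 1 of these symbols were taken, with small leucine-rich proteoglycans, integrins and laminins left out. Of the 40, 38 had at least 1 of 43 probes, out of 15063 genes with a symbol in all, and the fibrillin gene Fbn1 and the fibulin gene Efemp1 had no named probe here. The members were 5 fibrillar collagen chains, 6 other collagen chains, 9 adhesive and matricellular glycoproteins, 8 elastic fibre and microfibril proteins, 6 proteins of collagen folding, hydroxylation and procollagen trimming, 3 cross-linking oxidases, and a group of 3 that holds a cell surface protease, a secreted serpin and a hyaluronan synthase.

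The study asked how far amplification of small amounts of RNA preserves expression ratios. Its 56 two-color arrays include 7 comparisons of OV with 3T3 on 4 arrays each: unamplified cDNA from 100 μg of total RNA; IVTIII (T7-based in vitro transcription in several rounds), GA (global polyadenylated PCR), SMART (template-switching PCR) and SM37 (SMART with another first-strand primer and a lower reverse transcription temperature) from 10 ng each; and SMART and GA from 10 pg. By the study's methods, 10 ng entered the first step only, and a fraction of each product was carried on to the next. For the PCR targets this was meant to bring the RNA to the content of a single cell. The 10 ng and 10 pg therefore name starting amounts only. No treatment, genotype or time point separates the groups. Each comparison sets 1 cell line against 1 other, from the same 2 pools of RNA, and by the study's methods the 4 arrays hold 2 independent replicates, each with a dye swap. With 1 line of each kind, differences between the lines cannot be told apart from differences between epithelium and fibroblasts, and p-values measure technical spread only. Cultured lines are not tissue: 3T3 is an immortalized line that has been passaged for long, and neither line has the neighbors it would have in an ovary or a connective tissue.

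Collagen chains are made in the endoplasmic reticulum, where prolyl and lysyl residues are hydroxylated and the chains are wound into a triple helix under the care of chaperones. After secretion, proteases trim the ends of procollagen, and lysyl oxidases cross-link fibrils and elastin. Fibroblasts make much of the fibrillar collagen of connective tissue, while epithelia and mesothelia rest on a basement membrane built on collagen IV.

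The gene starts of the member with the second highest and the member with the lowest ratio in unamplified cDNA, Col3a1 and Col8a1, are shown because these chains lie near the ends of the range. Thbs1, with the highest ratio, had no window in the table. The windows are the 250 bases before the annotated start from RefSeq (GRCm38.p6), read 5′ to 3′ on the strand of the gene, with capitals marking TATAAA, or GGGCGG where it was found on the other strand (printed as CCGCCC). Col3a1 lies at chr1:45311288-45311537 on the plus strand and Col8a1 at chr16:57754738-57754987 on the minus strand.
Col3a1: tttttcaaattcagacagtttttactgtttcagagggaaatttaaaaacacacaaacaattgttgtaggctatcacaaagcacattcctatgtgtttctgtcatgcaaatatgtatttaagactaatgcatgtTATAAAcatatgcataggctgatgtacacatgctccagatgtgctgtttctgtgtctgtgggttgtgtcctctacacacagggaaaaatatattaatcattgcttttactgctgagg
Col8a1: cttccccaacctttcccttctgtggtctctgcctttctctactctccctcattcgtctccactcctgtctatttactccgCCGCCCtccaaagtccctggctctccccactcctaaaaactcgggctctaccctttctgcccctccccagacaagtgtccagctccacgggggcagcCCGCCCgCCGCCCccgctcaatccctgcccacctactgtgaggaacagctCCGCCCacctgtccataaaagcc
Col3a1 held 1 TATAAA, starting 117 bases before the start, and Col8a1 held GGGCGG 4 times, all on the other strand, starting 170, 73, 66 and 23 bases before it. CCAAT, the third motif searched, was found in neither window. Both strands were searched, and no match shown overlaps another. Of 32851 RefSeq windows of 250 bases, 33.8% held CCAAT, 12.4% held TATAAA and 32.7% held GGGCGG. Among the 26 members with a window, 6, 4 and 15 held them. Each member was counted by 1 window, that of its most upstream start, while a gene with several starts has several of the 32851 windows. The member counts and these shares are thus not in the same unit. A match of letters is a description and names no factor. The arrays' own probe sequences were not used here.

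All ratios below are mean log2 ratios of OV over 3T3, with the SD over 4 arrays, so that 1 is a 2-fold excess in OV. Levels of different genes cannot be compared, since only ratios were deposited. In a bulk extract, fewer cells of a type and less RNA per cell cannot be told apart. On each array of unamplified cDNA 14198 to 18274 probes had a value; at 10 pg the range was 2303 to 5137 in SMART and 5965 to 19243 in GA. From 10 ng, SMART had 11030 to 18588, SM37 had 10009 to 12812, GA had 9442 to 16672, and IVTIII had the fewest, 5667 to 7728. In SMART from 10 ng, array 1 stood apart: its ratios over all features correlated with those of arrays 2, 3 and 4 at r = 0.356, 0.45 and -0.09, beside 0.54 to 0.70 among the other 3. The direction of the ratio, Cy5 over Cy3 turned by the dye labels, is the likely one but is not settled by the sources. Were it the other way, every sign below would turn: 2 members would be called higher in OV and 14 lower in unamplified cDNA, with Col8a1 at the top of the range and Thbs1 at the bottom. With it the epithelial and mesothelial genes Wt1 (3.65 ± 0.50) and Krt8 (3.44 ± 0.48) were higher in OV, as was Cdkn2a (1.58 ± 0.11), a locus of cell cycle inhibitors that 3T3 lines commonly lack. Of 17 tested markers of mesothelium and of the ovary's surface epithelium, 9 were called higher and 1 lower. The lower one was Krt18, a keratin like Krt8, at -0.75 ± 0.25. Of 16 fibroblast markers other than matrix genes 2 were higher and 8 lower. Markers of other cells were called higher for 2 of 5 granulosa and theca genes, 0 of 5 endothelial genes and 1 of 6 leukocyte genes, and none of these was called lower. Their part in the ratios of the matrix genes was not tested. All marker lists were chosen with earlier results of these data known.

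In unamplified cDNA, with the direction used here, more matrix genes were called higher in OV than lower. Of 33 members with a value on all 4 arrays, 14 were called higher in OV and 2 lower, by an empirical Bayesian fit in limma with threshold at a likelihood of expression difference (LOD) above 0. This was 48.5% of those tested, beside 15.1% of all 12169 genes and unnamed probes tested, of which 8.24% were higher and 6.89% lower. The members were chosen with earlier results of these data known, so the larger share is not an independent test. The median log2 ratio of the members was 0.49, beside 0.001 for all, and the median size was 0.53, beside 0.21. At a Benjamini-Hochberg adjusted p under 0.05 the counts were 17 higher and 7 lower, and 46.4% of all features passed. Of the 33, 21 had a mean above 0 and 24 kept 1 sign on all 4 arrays.

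**Figure D1:**
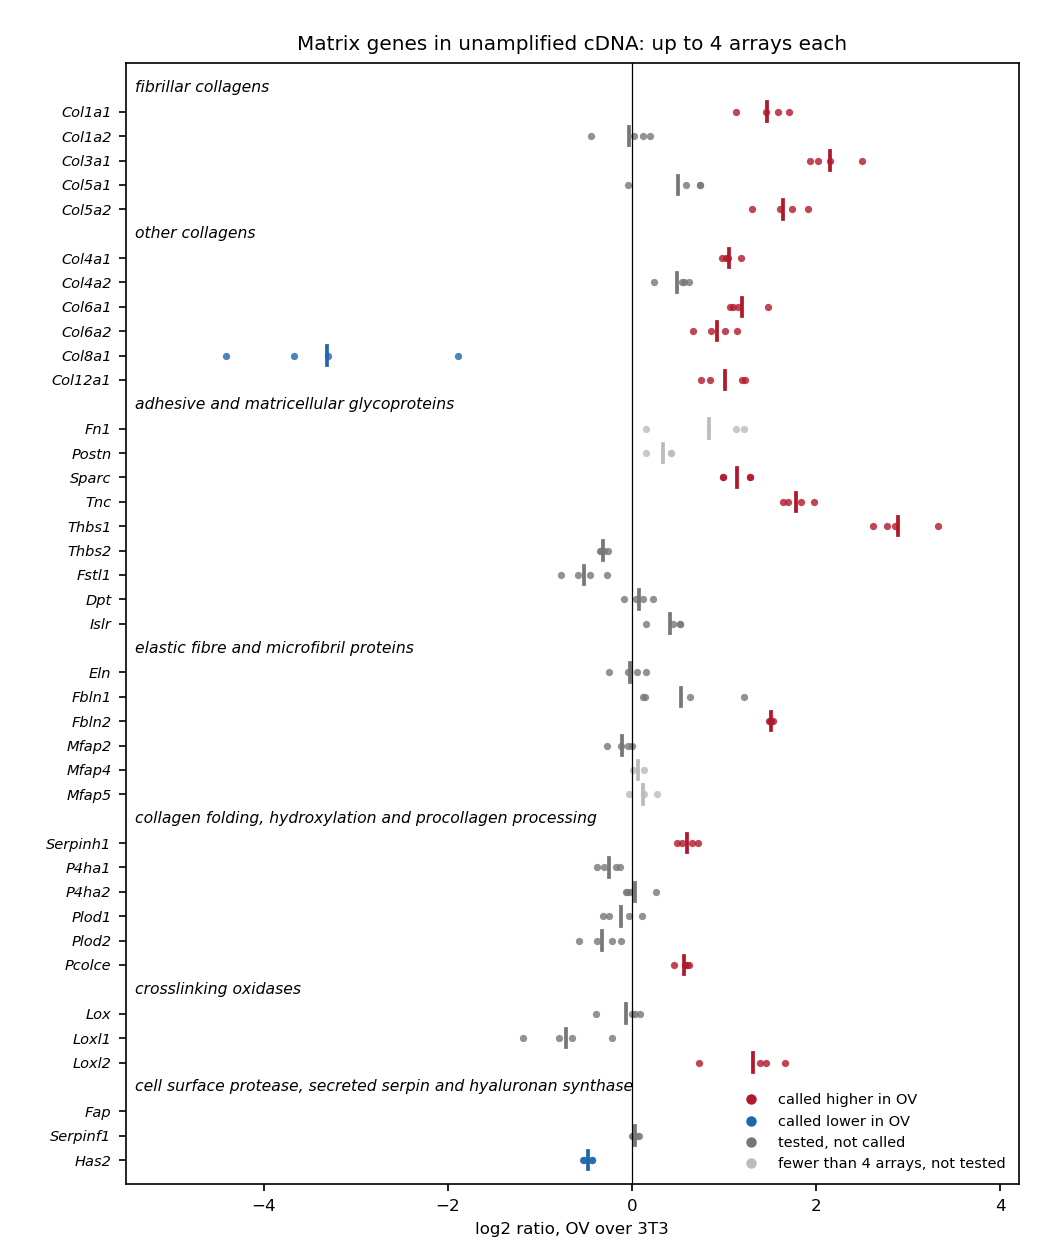
Log2 ratio of OV over 3T3 in unamplified cDNA (horizontal axis) for each matrix gene with a probe (vertical axis, grouped by role). Points are single arrays and vertical ticks their mean, red or blue where the gene was called; of the 33 genes tested, 14 genes were called higher, up to Thbs1 at 2.89, and 2 lower, down to Col8a1 at -3.32.

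Fibrillar collagens were split, with 3 of 5 chains called higher in OV and none lower. Col3a1, the single chain of collagen III, a fibril partner of collagen I in stretchable tissues, had 2.50, 1.93, 2.02 and 2.15 on the 4 arrays. Its mean of 2.15 ± 0.25 is a 4.44-fold excess in OV (limma, adjusted p = 9.1e-05). Col5a2, a chain of the collagen that starts thin fibrils, had 1.61, 1.74, 1.30 and 1.91, with a mean of 1.64 ± 0.26 (adjusted p = 0.000194). For Col1a1, the more abundant chain of collagen I, the arrays gave 1.14, 1.45, 1.70 and 1.59, with a mean of 1.47 ± 0.25 (adjusted p = 0.000248). All 12 of these values lay above 1, that is, above a 2-fold excess in OV. Col1a2, which joins Col1a1 in the collagen I trimer, did not share the excess: its values were 0.02, -0.44, 0.19 and 0.12, with a mean of -0.03 (95% interval -0.30 to 0.24). The intervals of Col1a1 (1.23 to 1.71) and Col1a2 lie apart, although the difference of both ratios itself was not tested. Col5a1, the partner of Col5a2, had a mean of 0.50 ± 0.37 with 1 array below 0 and was not called.

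Among the other collagens 4 of 6 chains were called higher and 1 lower. Both collagen VI members, whose chains form beaded filaments around cells, were higher: Col6a1 had 1.47, 1.06, 1.10 and 1.15 (mean 1.20 ± 0.19, limma adjusted p = 0.00027) and Col6a2 had 1.14, 0.86, 1.02 and 0.66 (mean 0.92 ± 0.20, adjusted p = 0.000657). For Col4a1, a basement membrane chain, the values were 1.19, 1.02, 0.98 and 1.04, with a mean of 1.06 ± 0.09 (adjusted p = 0.000171). Its partner Col4a2, whose gene lies head to head with it, was above 0 on all arrays, at 0.54, 0.24, 0.62 and 0.57, but missed the threshold with an LOD of -0.51 (mean 0.49 ± 0.17). Col12a1, a fibril-associated collagen, had 1.23, 0.75, 1.20 and 0.85 (mean 1.00 ± 0.24, adjusted p = 0.000719). Col8a1, a short-chain collagen of vessels and of the endothelium of the cornea, stood at the other end with -4.41, -1.89, -3.31 and -3.67. Every array showed a lower signal in OV, and the mean of -3.32 ± 1.06 is a 9.99-fold excess in 3T3 (adjusted p = 0.001). Its SD was also the widest of the called members, and without array 4 the call was lost at a mean of -3.20 (LOD -0.29).

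Adhesive and matricellular glycoproteins were called higher for 3 of 7 tested. Thbs1, thrombospondin 1, an activator of latent transforming growth factor beta and inhibitor of angiogenesis, had the highest ratio of all members in the direction used here. Its arrays gave 3.32, 2.77, 2.61 and 2.85, with a mean of 2.89 ± 0.31 or a 7.41-fold excess in OV (limma, adjusted p = 7.2e-05). Thbs2, its close relative, was at -0.31 ± 0.04, below 0 on all 4 arrays but not called. Tnc, tenascin C, an anti-adhesive protein of healing wounds, had 1.70, 1.97, 1.83 and 1.64 (mean 1.79 ± 0.15, adjusted p = 7.3e-05). Sparc, a collagen-binding glycoprotein also called osteonectin, had 0.99, 0.99, 1.28 and 1.29 (mean 1.14 ± 0.17, adjusted p = 0.000269). The others tested were not called: Fstl1, a follistatin-like secreted glycoprotein, at -0.52, the proteoglycan-binding Dpt at 0.08 and Islr, a leucine-rich repeat protein of mesenchymal cells, at 0.41. Fn1, fibronectin, had a value on 3 arrays (1.13, 1.22 and 0.15; mean 0.83) and the periostin gene Postn also on 3 (mean 0.34), so neither was tested.

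Of the elastic fibre and microfibril group, 4 genes were tested and 1 was called. Fbln2, fibulin 2, a linker of basement membranes and elastic fibres, had 1.54, 1.50, 1.51 and 1.49, the tightest set of any member (mean 1.51 ± 0.02, limma adjusted p = 5.5e-05). Fbln1, another fibulin, ranged from 0.12 to 1.21 around a mean of 0.53 ± 0.52 and was not called. Eln, elastin, was at -0.02 and the microfibril protein gene Mfap2 at -0.11, both close to 0. Mfap5 had values on 3 arrays (mean 0.12) and Mfap4 on 2 (mean 0.07).

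Of 6 proteins of collagen folding, hydroxylation and procollagen trimming, 2 were called higher. Serpinh1, the collagen chaperone Hsp47, had 0.72, 0.65, 0.54 and 0.49 (mean 0.60 ± 0.10, limma adjusted p = 0.000948), and Pcolce, an enhancer of procollagen C-proteinase, had 0.58, 0.46, 0.59 and 0.62 (mean 0.56 ± 0.07, adjusted p = 0.000898). Both calls were lost without array 1, at means of 0.56 each. None of the hydroxylases was called: the prolyl 4-hydroxylase subunits P4ha1 and P4ha2 were at -0.25 and 0.03, and the lysyl hydroxylases Plod1 and Plod2 at -0.12 and -0.32. Among the cross-linking oxidases, Loxl2 was higher, with 1.39, 0.73, 1.46 and 1.66 (mean 1.31 ± 0.40, adjusted p = 0.0011), although the call was lost without array 1 (mean 1.28) or array 3 (mean 1.26). Lox, the founding member of that family, was at -0.07 ± 0.22, and Loxl1, needed for elastic fibres, was below 0 on all 4 arrays at -0.71 ± 0.40 without a call. Has2, which makes hyaluronan, was the other member called lower, with -0.43, -0.43, -0.53 and -0.52 (mean -0.48 ± 0.06, adjusted p = 0.00136). Its LOD fell below 0 when any 1 of the 4 arrays was left out, with means from -0.50 to -0.46. The serpin gene Serpinf1 was at 0.03, and Fap, a cell surface protease of activated fibroblasts, had no value on any array. In all, 11 of the 16 calls were kept whichever single array was left out: Col1a1, Col3a1, Col5a2, Col4a1, Col6a1, Col6a2, Col12a1, Sparc, Tnc, Thbs1 and Fbln2.

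Where a gene had 2 probes, they did not always give the same ratio. The probes of Serpinh1 were at 1.01 and 0.19, the second without a call of its own. For Tnc, means of 2.21 on 4 arrays and 1.16 on 3 differed in size but not in direction. The probes of Fn1 gave 1.80 on 2 arrays and 0.42 on 3, so that the value of this gene depends on which probe was read. A gene's value on an array is the mean of the probes present there, and where 1 probe lacks arrays the values of a gene mix probes. For Tnc, probe 1 alone had means of 2.21 in unamplified cDNA, 1.48 in IVTIII, 0.45 in GA and 0.81 in SMART from 10 ng. Those of Loxl2 (1.31 and 1.22) and Mfap2 (-0.14 and -0.08) lay close together.

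Further genes of the same pathway, from lists beside the members, gave 23 calls in unamplified cDNA, where 15.1% of all features were called and their median was 0.001. These lists too were chosen with earlier results of these data known. Of 19 tested genes of collagen folding, secretion and processing (31 named), 8 were called higher and 1 lower (47.4%), with a median of 0.52. The 3 highest were Crtap, a part of the prolyl 3-hydroxylation complex, at 1.64, P4hb, protein disulfide isomerase and the shared beta subunit of prolyl 4-hydroxylase, at 1.42, and Fkbp7, an isomerase of the endoplasmic reticulum, at 1.18. The 1 lower gene was the oxidase Loxl3 at -1.01. Of 18 further collagen chains tested (28 named), 16.7% were called, a share near that of all features: 2 were higher, Col11a1 at 1.79 and Col4a5 at 0.49, and Col6a3, the third chain of the main collagen VI assembly, was lower at -1.18 (-1.42, -0.93, -1.37 and -1.02). This is opposite in direction to Col6a1 and Col6a2, whose values were above 0 on all arrays. The value of Col6a3 is a mean over 3 probes, whose agreement was not examined, while Col6a1 and Col6a2 have 1 probe each. Of 34 further glycoproteins and elastic fibre proteins tested (55 named), 7 were higher and 4 lower (32.4%). The calcification inhibitor Mgp was highest at 2.73, followed by Igfbp7 at 1.96 and the basement membrane protein Nid2 at 1.91, while Nid1, its close relative, was lowest at -1.42, followed by the fibulin Fbln5 at -1.01 and Ccn2, connective tissue growth factor, at -0.68. The medians of the collagen and glycoprotein lists were 0.17 and 0.21.

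Arrays with RNA of 1 source in both channels, which is OV in the replicas, gave the background of these ratios. In the self-self hybridization of unamplified cDNA, the SD of the log2 ratio over 31 members was 0.149, and between replicas of unamplified cDNA it was 0.0934 over 34 members. The lowest self-self ratio was that of Col1a1, at -0.65 on its 1 array, so that this probe varied by more than the other members without any difference in RNA. The SD of the members' OV to 3T3 means in unamplified cDNA was 1.09, and 12 of 33 exceeded 2-fold. Between amplified replicas from 10 ng the SD was 0.092 in SMART (28 members), 0.202 in IVTIII (24), 0.261 in GA (34) and 0.402 in SM37 (8), and no member exceeded 2-fold. From 10 pg it was 0.285 in SMART (17) and 0.631 in GA (32). In GA at 10 pg, 2 members exceeded 2-fold between replicas of the same RNA, Loxl2 at 1.36 and Col6a1 at 1.19, and at 100 pg Loxl1 did on the negative side. These were chosen after their values were seen.

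**Figure D2:**
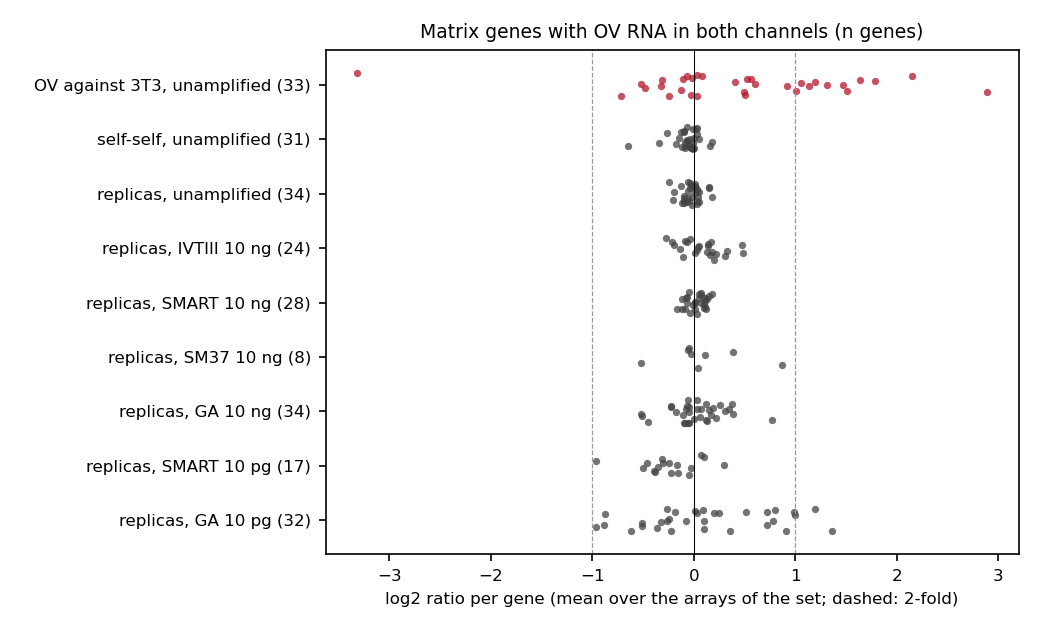
Log2 ratio of each matrix gene (horizontal axis) on arrays with RNA of 1 source in both channels, which is OV in the replicas. The top row gives OV against 3T3 in unamplified cDNA. Each dot is 1 gene, averaged over the arrays of the set, and dashed lines mark 2-fold. Same-RNA ratios lie within 2-fold in all rows shown but GA at 10 pg, which holds 2 genes beyond it.

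Amplified targets measured fewer members and gave fewer calls. On all 4 arrays, 29 members had a value in GA, 32 in SMART, 25 in SM37 and 18 in IVTIII from 10 ng, and 8 in SMART and 20 in GA from 10 pg. In IVTIII 3 members were called higher and 2 lower, where 11.1% of all features were higher and 10.2% lower (21.3% in all). GA from 10 ng gave 0 higher and 1 lower, beside 2.17% and 5.68% of all features (7.85% in all). SMART from 10 ng gave 4 higher and 3 lower, beside 2.40% and 0.937% (3.34% in all), and SM37 gave 0 higher and 4 lower, beside 5.74% and 8.18% (13.9% in all). Of its 32 members tested, SMART called 7, while GA called 1 of 29. The members were chosen with earlier results of these data known, so shares beside all features are not an independent test. In SMART from 10 ng no member was called without array 2 or without array 3. From 10 pg, 1 member was higher and 0 lower in SMART, beside 5.52% and 3.11% of all features (8.63% in all), and 3 were higher and 0 lower in GA, beside 2.49% and 2.53% (5.02% in all). At an adjusted p under 0.05 in limma, the members called were 10 in IVTIII (54.9% of all features), 10 in GA (26.5%), 9 in SMART (6.32%) and 15 in SM37 (43.5%), and from 10 pg 3 in SMART (30.8%) and 9 in GA (14.7%). In the order IVTIII, GA, SMART and SM37, then SMART and GA at 10 pg, the median log2 ratio of the members was 0.05, 0.12, 0.03, -0.12, 0.13 and 0.27, and the SD over their means was 0.754, 0.633, 0.386, 0.468, 0.325 and 1.35. These medians rest on different genes in each target.

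**Figure D3:**
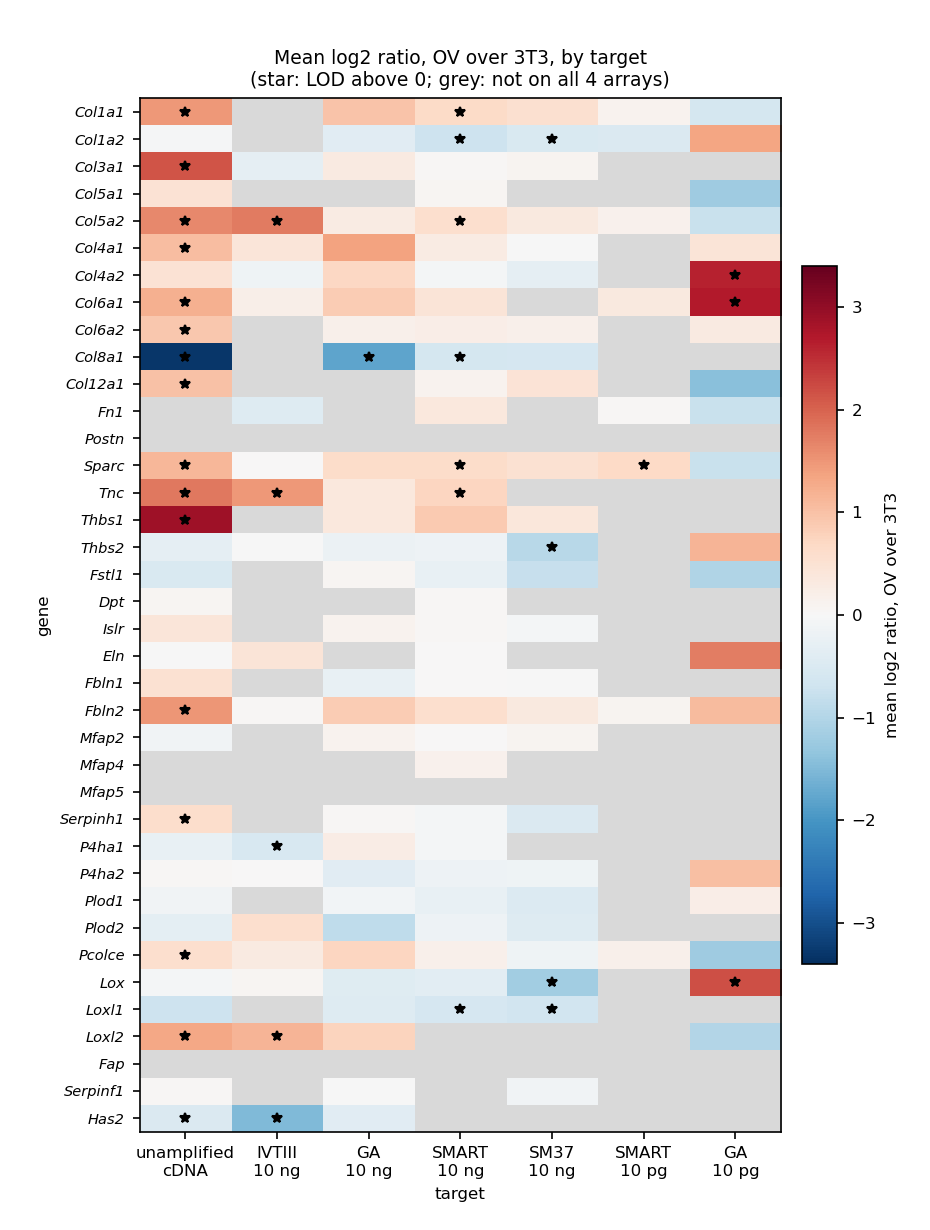
Mean log2 ratio of OV over 3T3 (color) for each matrix gene (rows, by role) in unamplified cDNA and the 6 amplified targets (columns); grey cells lack a value on all 4 arrays and stars mark called genes. Col3a1, Thbs1 and Col8a1 have strong color in unamplified cDNA and pale color in SMART and SM37, where their means lie between -0.61 and 0.88. These genes lie at the ends of the unamplified range, which favors paler color elsewhere.

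The ratio of each amplified target was then tested against that of unamplified cDNA over 8 arrays, again with LOD above 0 and with the arrays taken as independent. The 6 tests share the same 4 unamplified arrays and are not independent. Ratios of members were called different for 7 of 17 in IVTIII, 5 of 29 in GA, 11 of 30 in SMART and 11 of 25 in SM37, and from 10 pg for 4 of 7 in SMART and 9 of 19 in GA. Called members were lower than in unamplified cDNA in 6, 5, 10, 10, 4 and 4 cases in this order, beside 8.74%, 4.24%, 4.14%, 8.50%, 5.61% and 6.33% of all features. They were higher in 1, 0, 1, 1, 0 and 5 cases, beside 9.84%, 1.77%, 1.96%, 4.36%, 5.44% and 4.67% of all features. With arrays scaled to 1 spread, the balance in GA at 10 pg turned from 5 higher and 4 lower to 1 higher and 5 lower. With the assumed dye-swap pairs averaged, which leaves 2 values on each side, 4, 2, 10, 6, 4 and 2 members were called. Over all features the calls went from 778, 364, 467, 802, 136 and 521 to 367, 81, 405, 318, 83 and 181. At an adjusted p under 0.05 the members called were 11, 10, 16, 18, 6 and 13, beside 47.1%, 20.6%, 16.8%, 37.9%, 34.9% and 34.4% of all features. The median difference over the members tested was -0.30, -0.34, -0.47, -0.62, -0.86 and -0.51, beside -0.01, -0.04, 0.01, -0.03, 0.07 and -0.12 for all features tested. These medians depend on the arrays and the filter: scaling gave -0.63 in IVTIII and -0.96 in GA at 10 pg, values on at least 2 arrays gave -0.47 in SMART at 10 pg and -0.33 in GA at 10 pg, and the median was -0.22 in GA without array 2. In GA at 10 pg it was -0.04 without array 1, where 33 members could be tested in place of 19. The members were chosen with earlier results of these data known, and the same unamplified arrays enter every difference. Calls of lower ratios and negative medians were favored in advance for a list that lay mostly above 0. The counts and medians beside all features are therefore not an independent test. The members' median ratio in unamplified cDNA was 0.49, beside 0.001 for all features. Ratios drawn toward 0 over all genes would thus lower the members' median and hardly move that of all features. The study reports such a systematic reduction of ratios in SMART, and no significant change in GA or linear amplification. Its part in the members' differences was not tested.

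**Figure D4:**
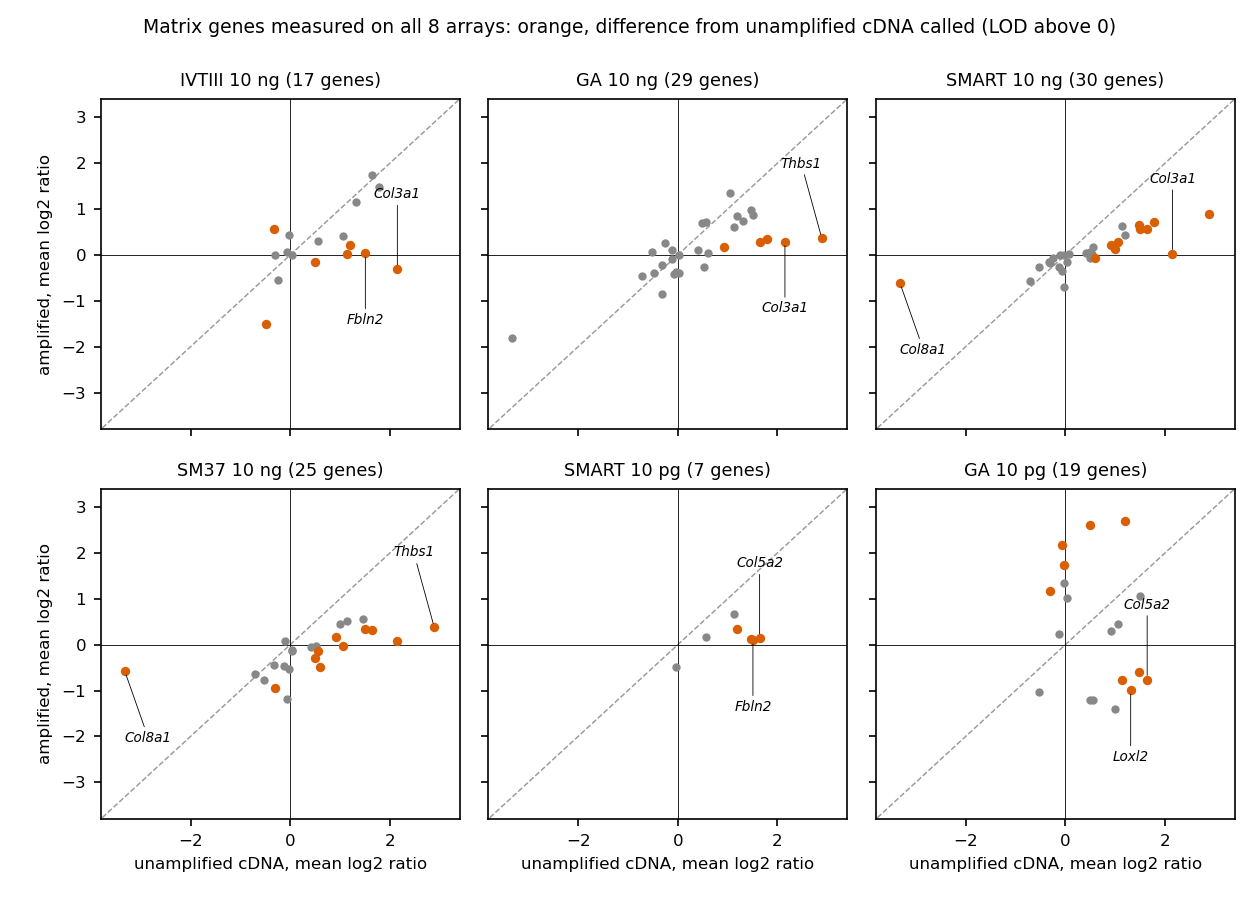
Mean log2 ratio of OV over 3T3 of each matrix gene in an amplified target (vertical axis) against that in unamplified cDNA (horizontal axis), 1 panel per target, with the line of equality dashed. Orange points are genes whose difference was called; in SMART and SM37 at 10 ng, 10 of 11 lie below the line and Col8a1 above it.

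Col3a1 and Thbs1, the members with the highest unamplified ratios, had lower ratios in all amplified targets that measured them on 4 arrays. The unamplified arrays that rank them highest also enter the differences below, so lower amplified ratios were favored in advance. Col3a1 had 0.10, 0.34, 0.26 and 0.48 in GA, -0.18, 0.01, 0.26 and 0.03 in SMART, and 0.15, 0.14, -0.05 and 0.11 in SM37, each array below every unamplified value. In IVTIII it had -0.09, -0.95, -0.09 and -0.09, the second array apart from the rest. The differences from unamplified cDNA were -1.86 ± 0.15 (SE) in GA, -2.12 ± 0.14 in SMART, -2.06 ± 0.13 in SM37 and -2.45 ± 0.21 in IVTIII, with adjusted p from limma between 5e-06 and 0.000144. Thbs1 had 0.74, 0.40, 0.16 and 0.15 in GA, 0.38, 0.62, 0.17 and 0.36 in SM37, and 0.01, 0.99, 1.28 and 1.25 in SMART. In SMART its mean of 0.88 ± 0.59 was still the highest of the 32 members tested, without a call. Its differences were -2.53 ± 0.19, -2.51 ± 0.16 and -2.01 ± 0.26 in that order. Neither gene had a value on any array of SMART at 10 pg, and in IVTIII Thbs1 had none either.

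Col8a1 kept its sign where it was measured from 10 ng, but its size differed. In GA it was the 1 member called, with -2.44, -1.90, -1.26 and -1.62 (mean -1.80 ± 0.50, limma adjusted p = 0.00228), and the call was kept without any 1 array. SMART gave -0.37, -0.89, -0.41 and -0.77 (mean -0.61 ± 0.26) and SM37 gave -0.55, -1.31, -0.28 and -0.16 (mean -0.57 ± 0.52). The ratio lay closer to 0 than in unamplified cDNA by 2.71 ± 0.40 (SE) in SMART and 2.75 ± 0.44 in SM37. As the lowest member on the unamplified arrays, which enter these differences, Col8a1 was favored in advance to lie closer to 0. In GA at 10 pg it had a value on 3 arrays with a mean of 1.31, above 0, and was not tested.

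In IVTIII, Col5a2 (1.20, 1.49, 1.72 and 2.62; mean 1.75), Tnc (1.19, 1.56, 1.30 and 1.88; mean 1.48) and Loxl2 (0.89, 1.44, 0.96 and 1.31; mean 1.15) were called higher in OV. Has2 was lower, with -1.38, -1.40, -1.71 and -1.56 (mean -1.51 ± 0.16), as was P4ha1 with -0.53, -0.38, -0.64 and -0.67 (mean -0.56 ± 0.13), a call lost without any 1 of the arrays. Of the 4 genes followed in every target, Col1a1 had values on only 2 arrays, 0.07 and -0.43. Fn1, from 1 of its 2 probes, had -0.39, -0.32, -0.46 and -0.61, Sparc had 0.13, 0.20, -0.09 and -0.17, and Lox had 0.12, 0.21, -0.04 and -0.08, none of them called. Besides Col3a1, ratios were lower than in unamplified cDNA for Fbln2 (-0.05, -0.04, 0.32 and -0.08; difference -1.47 ± 0.11 SE), Sparc (difference -1.12 ± 0.13) and Has2 (-1.03 ± 0.11), and higher for Plod2 (0.69, 0.86, 0.26 and 0.47; difference 0.89 ± 0.15). The Plod2 call was lost without array 1 or array 2 of IVTIII, and without array 2 or array 4 of unamplified cDNA, with values from 0.80 to 0.87.

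In GA from 10 ng, Col1a1 had 1.18, 1.73, 0.66 and 0.34 (mean 0.98 ± 0.61), Sparc 1.10, 0.97, -0.03 and 0.40 (mean 0.61 ± 0.52) and Lox -0.42, -0.75, -0.28 and -0.18 (mean -0.41 ± 0.25), all without a call, and Fn1 had 1.09, 1.20 and 1.52 on 3 arrays, where its probes had means of 1.94 and 0.35. For Col1a1 and Sparc the first 2 arrays stood above the last 2. Tnc and Col5a2 had lower ratios than in unamplified cDNA, by -1.43 ± 0.18 (SE) and -1.36 ± 0.21. The arrays gave 0.61, 0.68, -0.05 and 0.19 for Tnc and 0.51, 0.70, -0.21 and 0.13 for Col5a2, with no overlap with the unamplified values of either gene.

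In SMART from 10 ng the called genes had ratios of under 2-fold. Higher in OV were Tnc (0.42, 0.92, 1.09 and 0.45; mean 0.72), Col1a1 (0.32, 0.95, 0.70 and 0.65; mean 0.66), Sparc (0.65, 0.56, 0.86 and 0.47; mean 0.64) and Col5a2 (0.37, 0.65, 0.52 and 0.75; mean 0.57). Lower were Col1a2 (-0.26, -0.78, -0.72 and -1.03; mean -0.70), Col8a1 and Loxl1 (-0.23, -0.73, -0.67 and -0.63; mean -0.57). Without array 2 or without array 3 no member was called, and without array 4 the 3 lower calls were lost while 6 members were called higher. Over all features the calls also fell, from 292 of 8748 to 88 of 9210 without array 2 and 105 of 9444 without array 3. Without array 4 they were 391 of 11014. When array 1, which stood apart, was left out, 5 members were called higher and 3 lower, beside 437 of 8774 features. Fn1 had 0.47, 0.36, 0.45 and 0.13, and Lox had 0.02, -0.36, -0.42 and -0.63, without a call. Col5a2 and Tnc each had a ratio 1.07 lower than in unamplified cDNA (difference -1.07 ± 0.14 and -1.07 ± 0.16, SE), beside Col3a1 and Thbs1.

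In SM37 no member was called higher. Thbs2 was lower with -1.07, -0.96, -0.87 and -0.85 (mean -0.94 ± 0.10, limma adjusted p = 0.000328), the only 1 of the 4 calls that was kept without any single array. Lox had -0.70, -0.69, -1.68 and -1.69, so that its mean of -1.19 ± 0.57 lies between the first pair of arrays and a lower second pair. Its call was lost without array 3 or array 4, at -1.03 and -1.02. Loxl1 had -0.62, -0.40, -0.60 and -0.94 (mean -0.64 ± 0.22), and Col1a2 was at -0.52 ± 0.13. The latter had -0.42, -0.65, -0.40 and -0.61, and its call was lost whichever array was left out. Without a call were Col1a1, whose second pair of arrays was apart from the first (0.14, 0.13, 1.02 and 0.92), and Sparc (0.64, 0.48, 0.72 and 0.22). Fn1 had values on 2 arrays, 0.26 and -0.10, and was not tested. Col5a2 (0.53, 0.79, -0.003 and -0.03; difference -1.32 ± 0.20 SE) and Fbln2 (0.64, 0.32, 0.22 and 0.18; difference -1.17 ± 0.12) followed Thbs1 and Col3a1 among the lowered ratios. The probes of Serpinh1 were at -1.12 and 0.15 in this target.

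At 10 pg the members measured were few in SMART and widely spread in GA. Sparc was the 1 member called in SMART at 10 pg, with 0.67, 0.70, 0.61 and 0.73 (mean 0.68 ± 0.05, limma adjusted p = 0.000171). Col5a2 (0.10, 0.24, 0.18 and 0.06), Fbln2 (0.24, 0.11, -0.02 and 0.08) and Col1a1 (-0.12, 0.07, 0.31 and 0.22) lay near 0. Their differences from unamplified cDNA were -1.50 ± 0.12, -1.41 ± 0.08 and -1.35 ± 0.14 (SE), followed by Col6a1 at -0.86 ± 0.11 (0.40, 0.34, 0.22 and 0.37). Of the Fn1 probes, 1 had -0.09, -0.14, -0.08 and 0.04 and the other 0.98 on array 4 only, so that the gene's mean of 0.05 mixes both. Lox had 0.07 and -0.02 on 2 arrays.

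GA at 10 pg gave the largest excesses in OV among amplified targets. Col6a1 had 3.33, 2.72, 2.21 and 2.50 (mean 2.69 ± 0.48), Col4a2 2.52, 2.27, 2.54 and 3.12 (mean 2.61 ± 0.36) and Lox 3.34, 1.85, 1.48 and 2.04 (mean 2.18 ± 0.81). The call of Lox was lost without array 2, 3 or 4 (means from 2.22 to 2.41). In unamplified cDNA the same genes were at 1.20, 0.49 and -0.07. Differences from unamplified cDNA were 2.25 ± 0.36 (SE) for Lox, 2.12 ± 0.21 for Col4a2, 1.76 ± 0.31 for Eln and 1.50 ± 0.25 for Col6a1. The arrays of Eln gave 2.50, 2.10, 1.38 and 1.00, without a call of the ratio itself. Col5a2 had -0.26, -0.76, -0.93 and -1.09, on the other side of 0 from its unamplified values, with a difference of -2.40 ± 0.22. Loxl2 (-0.84, -0.36, -1.64 and -1.12) differed by -2.30 ± 0.30, Col1a1 (-1.35, -1.13, -0.02 and 0.10) by -2.07 ± 0.34 and Sparc (-1.23, -1.22, 0.07 and -0.68) by -1.91 ± 0.29. Between replicas of OV RNA in the same target, Col6a1 had 1.15 and 1.23 on the 2 arrays and Loxl2 1.87 and 0.86. Sparc had 0.97 and 0.85 there, Col1a1 -1.01 and -0.74, and Lox -0.03 and 1.47. Col5a2 had -1.05 and -0.89, the lowest mean of any member there, Eln 1.18 and 0.80, Thbs2 0.86 and 0.59, and Col4a2 -0.56 and -0.45. The part of such scatter in the cell line ratios was not tested. The probes of Fn1 went opposite ways, 1 at -1.59 on 4 arrays and the other at 0.35 on 3, so that the gene's values (-0.46, -0.67, -0.77 and -1.10), without a call, describe neither. With the assumed dye-swap pairs averaged, 2 members differed in this target in place of 9, and 181 of all features in place of 521. When 1 array of either side was left out, the differences of Col4a2, Col5a2, Loxl2 and Thbs2 were kept, and those of Col1a1, Col6a1, Eln, Lox and Sparc were each lost for at least 1 array, with values from -2.08 to -1.86 for the negative and 1.45 to 2.30 for the positive ones.

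**Figure D5:**
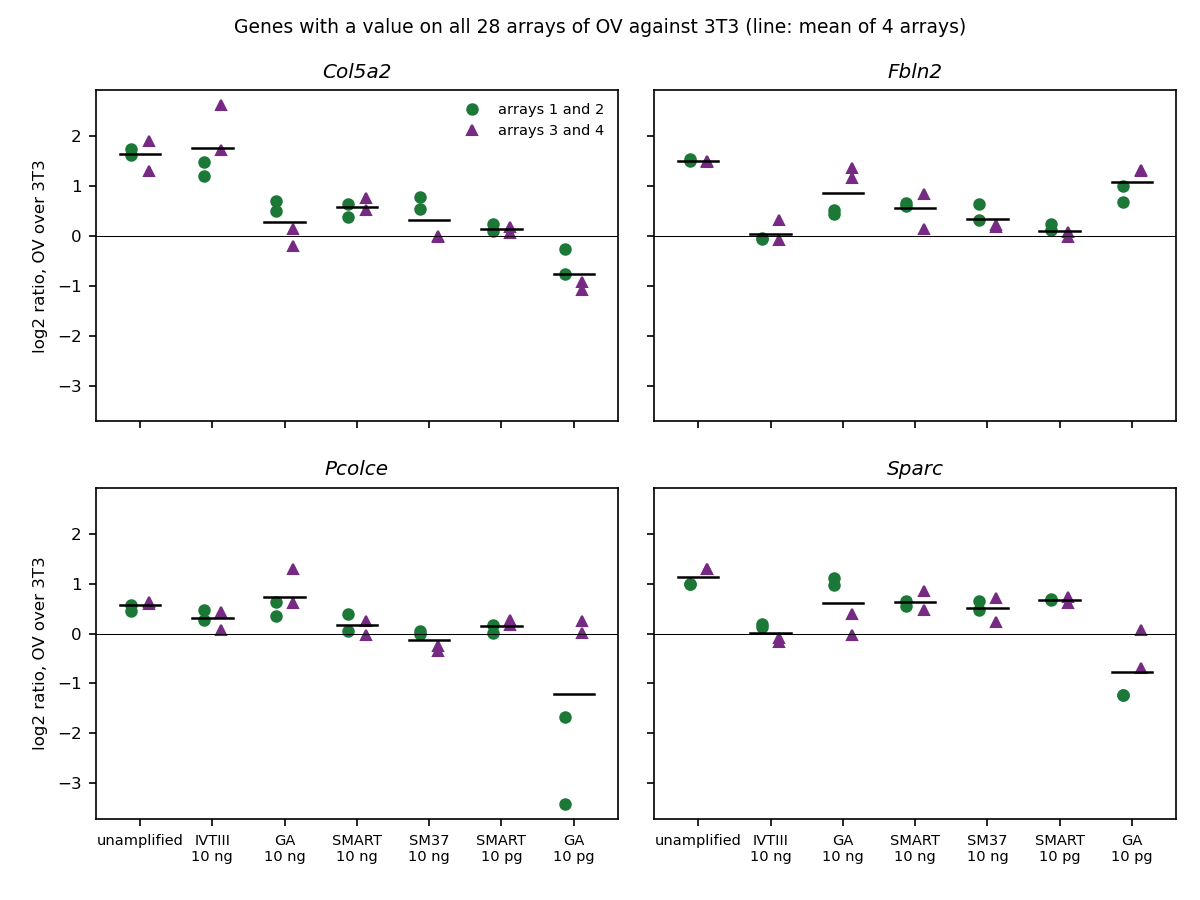
Log2 ratio of OV over 3T3 (vertical axis) on each array (circles for arrays 1 and 2, triangles for 3 and 4) with the mean (line) for Col5a2, Fbln2, Pcolce and Sparc, the members measured on all arrays of all 7 comparisons (horizontal axis). In unamplified cDNA the 4 arrays of each gene lie above 0, while in GA at 10 pg Fbln2 lies above 0 and Col5a2 below it.

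Only Col5a2, Fbln2, Pcolce and Sparc had a value on all arrays of all 7 comparisons. Sparc had means of 1.14 in unamplified cDNA, 0.61 in GA, 0.64 in SMART, 0.52 in SM37 and 0.68 in SMART at 10 pg, but 0.02 in IVTIII and -0.77 in GA at 10 pg. Fbln2 ranged from 0.04 in IVTIII to 1.07 in GA at 10 pg among amplified targets, where its 4 arrays were between 0.68 and 1.31. Pcolce was at 0.31 in IVTIII, 0.72 in GA, 0.17 in SMART, -0.14 in SM37 and 0.16 in SMART at 10 pg, and in GA at 10 pg its arrays gave -3.41, -1.67, 0.26 and 0.02. Postn, Mfap5 and Fap had values on all 4 arrays of none of the comparisons.

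Values of arrays 1 and 2 were also set beside those of arrays 3 and 4, a measure chosen after the values were seen. Values of the first pair did not overlap those of the second for 14 of 20 members in GA at 10 pg (61.7% of all features), 18 of 29 in GA (55.0%), 15 of 25 in SM37 (47.8%), 11 of 18 in IVTIII (44.5%) and 5 of 8 in SMART at 10 pg (33.4%). In SMART it was 11 of 32 (36.3% of all) and in unamplified cDNA 12 of 33 (34.3%). Nothing about the members is read from these shares. The labels do not say which arrays form a dye-swap pair, and these pairs were assumed from the hybridization numbers. Over all features in GA at 10 pg, r was 0.79 and 0.845 within the pairs, beside 0.455 to 0.57 across them. In GA from 10 ng it was 0.698 and 0.856, beside 0.448 to 0.552. In IVTIII it was 0.889 and 0.886, beside 0.80 to 0.86, and in SM37 0.782 and 0.825, beside 0.635 to 0.712. In unamplified cDNA, which enters every difference, the pairs did not stand out, at 0.874 and 0.817, beside 0.771 to 0.881. Nor did they in SMART from 10 ng, at 0.356 and 0.542, beside -0.091 to 0.701. In SMART at 10 pg r was lower within the pairs, at 0.56 and 0.609, beside 0.627 to 0.771. The part of the pairs in the calls was not tested beyond the fits with averaged or blocked pairs.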

How the data were processed

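Each deposited value is the log2 ratio of an array's dye channels, made by the authors from background-subtracted GenePix intensities by print-tip lowess normalization in limma. Intensities were not used here, so depth is unknown; the number of probes with a value per array is given instead, and it limits the precision. The genome build behind the probes is not given in the sources used here. Of 21997 probes, 231 controls were left out; of the rest, 16632 had 1 gene symbol, 139 several and 4995 none. Probes of 1 symbol were averaged to 15063 genes.

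The sign of each ratio was set to OV over 3T3 from the dye labels, on the reading that Cy5 is the numerator. The labels of 2 arrays contradict themselves: for IVTIII array 1 both channel fields name 3T3, and the dyes in the description were followed; for GA array 2 from 10 ng the description speaks of replicas, and the title and channel fields were followed. Turned this way, they correlated with the other arrays of their sets at r from 0.80 to 0.89 and from 0.45 to 0.70. Most labels give the input as 10 ug or 100 mg; the amounts of the methods, 10 ng and 100 μg, were used. The study's text gives the ratio both ways, so the direction is likely, not settled. Each comparison was fitted in limma 3.58.1 (R 4.3.3; lmFit, eBayes, prior proportion 0.01) over all features with a value on all 4 arrays; genes with an LOD above 0 were called, and Benjamini-Hochberg adjusted p-values are over all features. Amplified and unamplified ratios were compared in the same way over 8 arrays. With 4 arrays there are 3 residual degrees of freedom. Intervals are 95%.

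The 40 genes, the further lists and the markers were chosen with earlier results of these data known. All members are accounted for by role. In unamplified cDNA single arrays are given for called members, and in amplified targets for called members, for up to 4 called differences per direction, and for Col1a1, Fn1, Sparc and Lox. The 3 highest and 3 lowest called genes of each further list are named, with Wt1, Krt8 and Cdkn2a as checks of direction. Other names were chosen after their values were seen.

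Alternatives covered the threshold, the filter on missing values, a dye term, scaling of arrays, robust variance, dye-swap pairs averaged or as a random block, single probes, the hybridization number as a block and leaving out each array. Fits were run on simulated data with changes of known size. The simulated noise was independent on each array, without pairs, so these runs cannot show how pairs affect the calls. Promoter windows are from RefSeq. Plots used Python 3.11.15 with matplotlib 3.10.9.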

Additional observations from a re-analysis of the deposited data

Results flagged for a closer look

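Ratios of single genes that differed between an amplified target and unamplified cDNA (limma on 8 arrays, LOD above 0) are listed with the difference in log2 ratio, amplified minus unamplified. In IVTIII they were Col3a1 (-2.45), Fbln2 (-1.47), Sparc (-1.12), Has2 (-1.03), Col6a1 (-0.99), Col4a2 (-0.65) and Plod2 (0.89). In GA from 10 ng they were Thbs1 (-2.53), Col3a1 (-1.86), Tnc (-1.43), Col5a2 (-1.36) and Col6a2 (-0.75). SMART from 10 ng gave Col3a1 (-2.12), Thbs1 (-2.01), Col5a2 (-1.07), Tnc (-1.07), Fbln2 (-0.95), Col12a1 (-0.88), Col1a1 (-0.81), Col4a1 (-0.78), Col6a2 (-0.70), Serpinh1 (-0.67) and Col8a1 (2.71). SM37 gave Thbs1 (-2.51), Col3a1 (-2.06), Col5a2 (-1.32), Fbln2 (-1.17), Serpinh1 (-1.08), Col4a1 (-1.08), Col4a2 (-0.79), Col6a2 (-0.75), Pcolce (-0.70), Thbs2 (-0.63) and Col8a1 (2.75). In SMART at 10 pg they were Col5a2 (-1.50), Fbln2 (-1.41), Col1a1 (-1.35) and Col6a1 (-0.86). GA at 10 pg gave Col5a2 (-2.40), Loxl2 (-2.30), Col1a1 (-2.07), Sparc (-1.91), Thbs2 (1.48), Col6a1 (1.50), Eln (1.76), Col4a2 (2.12) and Lox (2.25). Beside the GA 10 pg and Plod2 calls named above, those of Col4a2 in IVTIII (values -0.63 to -0.61), Col6a2 in GA (-0.76 to -0.67) and in SMART (-0.72 to -0.62), Col1a1 in SMART (-0.83 to -0.70) and Pcolce in SM37 (-0.69 to -0.68) were lost for at least 1 array left out of either side.

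A single array stood apart from the other 3 for 6 of 165 sets of member values, by Dixon's test at 0.829, where chance flags about 1 in 20. They were P4ha2 in unamplified cDNA (0.26 on array 3, the others from -0.06 to -0.02), Col3a1 in IVTIII (-0.95 on array 2, the others near -0.09), Col4a2 in IVTIII (0.062 on array 3, the others from -0.24 to -0.21), Fbln2 in IVTIII (0.32 on array 3, the others from -0.08 to -0.04), Col4a2 in GA (1.36 on array 4, the others from 0.43 to 0.53) and Fn1 in SMART at 10 pg (0.51 on array 4, the others from -0.14 to -0.08), where array 4 alone includes a second probe at 0.98 and the shared probe was at 0.04.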

How the results depend on the processing

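Of 431 log2 ratios of members in unamplified cDNA under the alternatives, 404 stayed on their side of the threshold, 14 crossed it upward and 13 downward. No called member changed sign, and 4 uncalled ones did: Col1a2 (0.11 without array 2) and, without array 3, Eln (0.055), P4ha2 (-0.04) and Lox (0.04). At an adjusted p under 0.05 in place of LOD above 0, the further pathway genes called went from 23 to 45, and the members called to 10 in IVTIII, 10 in GA, 15 in SM37, 3 in SMART at 10 pg and 9 in GA at 10 pg. Differences from unamplified cDNA then numbered 11 in IVTIII, 10 in GA and 18 in SM37, with shares of all features given above. With values on at least 2 arrays, 3 members were called in GA and 5 in GA at 10 pg, beside 698 of 12772 and 398 of 15529 features. A dye term gave 2 in GA (281 of 6409 features) and 1 in SM37 (748 of 7139), and scaled arrays 2 in GA (522 of 6409). Averaged dye-swap pairs gave 1 in SM37 (456 of 7139), and pairs as a random block 2 in SMART at 10 pg (157 of 1286). Scaling left 7 of 11 differences in SMART, with 342 in place of 467 over all features. With pairs averaged, a setting added after the values were seen, 4 differences were left in IVTIII, 2 in GA, 6 in SM37 and 2 in GA at 10 pg. This leaves 2 values in each set. Over all features the calls fell from 778 to 367, 364 to 81, 802 to 318 and 521 to 181 in this order. The cause was not tested. When each array was left out, member calls ranged from 12 to 17 in unamplified cDNA, 1 to 2 in GA, 0 to 8 in SMART (0 without array 2 or 3), 1 to 3 in SM37 (1 without array 3 or 4), 1 to 2 in SMART at 10 pg, 2 to 3 in GA at 10 pg and 4 in each case in IVTIII. Calls over all features in SMART were 88 without array 2 and 105 without array 3, in place of 292. Differences ranged from 4 to 6 in GA, 9 to 10 in SMART, 10 to 13 in SM37, 5 to 7 in IVTIII and 4 to 12 in GA at 10 pg, and stayed at 4 in SMART at 10 pg. Leaving out unamplified arrays was added after the values were seen. In GA at 10 pg the differences numbered 5 without unamplified array 2 and 4 without array 3 or 4.

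Samples of different targets share only a hybridization number: their deviations correlated with those of the same-numbered unamplified array at r from -0.209 to 0.116. With this number as a replicate block, differences were 6 in IVTIII, 4 in GA, 10 in SMART, 12 in SM37, 4 in SMART at 10 pg and 8 in GA at 10 pg.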
